A study of Mus musculus with 6 samples.

Results

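Replication-dependent histone genes are the genes that supply the bulk of the histone protein onto which new DNA is wound. They were compared here between BV2 cells without and with PGC-1α overexpression. Members were the probes whose transcript accession leads, in the RefSeq table of mouse assembly GRCm38.p6, to a gene with a symbol of the H1f, H2ac, H2bc, H3c or H4c series or with an older symbol that begins with Hist1h to Hist4h. The table holds 70 such genes, 6 of class H1, 20 of H2A, 19 of H2B, 12 of H3 and 13 of H4, and 50 of them had a probe. These genes were read by 54 of the 56605 probes on the arrays, namely 6 probes of H1, 15 of H2A, 15 of H2B, 7 of H3 and 11 of H4. The group was proposed because it was already known to be higher on the PGC-1α arrays, so the differences between the groups that follow are a description and lend support to nothing. Most of the genes with a probe lie on chromosome 13 (39 genes), 7 lie on chromosome 3, 3 on chromosome 11 and 1 on chromosome 6.

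RNA came from BV2, an immortalized mouse microglial cell line, and every culture, control included, had received LPS, the bacterial lipopolysaccharide that sets off inflammatory signalling. The cell culture methods give 500 ng/ml for 6 h. The PGC-1α cells were made with a lentivirus that carries the PGC-1α coding sequence behind a ubiquitin promoter, together with EGFP and puromycin resistance, and were selected with puromycin, while the labels describe the controls only as lacking the overexpression. The methods mention a negative control lentivirus for these cells but do not tie it to the arrays. Each group had 3 arrays, with 2 arrays of each group on slide 1 and 1 of each on slide 2. The labels do not say that the replicates were separate cultures, so the spread between arrays may be technical.

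Canonical histone mRNAs differ from other mRNAs of the cell. Their genes stand in clusters, have no introns and are transcribed during S phase under the coactivator NPAT, and their transcripts end in a conserved stem-loop bound by SLBP in place of a poly(A) tail. H2A, H2B, H3 and H4 form the octamer of the nucleosome, and H1 binds the linker DNA between nucleosomes. PGC-1α, encoded by Ppargc1a, is a transcriptional coactivator known for inducing mitochondrial genes. In a population of cells, more histone RNA per cell and more cells in S phase cannot be told apart.

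The promoters of the classes carry different short elements. The windows below are those of the gene with the largest difference in each class and of H2bc23, the only gene with a negative difference. Each window runs 5′ to 3′ from 250 bases before to 50 bases after the annotated start (RefSeq, GRCm38.p6). Capitals mark matches, on either strand, to 6 motifs, which are the CCAAT box (CCAAT), the octamer of H2A and H2B promoters (ATTTGCAT), the TATA box (TATAAA), the H1 box (AAACACA), a core of the H4 promoter element (GGTCCG) and an E2F-type site (TTTCGCGC).
H1f1 (chr13:23763418-23763717, + strand): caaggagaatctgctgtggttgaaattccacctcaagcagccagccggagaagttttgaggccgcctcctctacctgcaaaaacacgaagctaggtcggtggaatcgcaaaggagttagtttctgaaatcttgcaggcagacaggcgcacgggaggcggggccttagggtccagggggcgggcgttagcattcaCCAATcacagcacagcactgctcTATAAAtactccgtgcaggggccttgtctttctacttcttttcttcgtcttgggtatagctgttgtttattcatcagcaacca
H2ac4 (chr13:23750838-23751137, + strand): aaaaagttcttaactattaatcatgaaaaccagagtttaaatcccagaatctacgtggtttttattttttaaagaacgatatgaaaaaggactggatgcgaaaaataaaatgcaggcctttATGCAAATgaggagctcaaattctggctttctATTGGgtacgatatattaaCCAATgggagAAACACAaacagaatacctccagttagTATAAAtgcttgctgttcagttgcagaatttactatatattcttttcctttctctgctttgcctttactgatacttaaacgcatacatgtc
H2bc7 (chr13:23574158-23574457, - strand): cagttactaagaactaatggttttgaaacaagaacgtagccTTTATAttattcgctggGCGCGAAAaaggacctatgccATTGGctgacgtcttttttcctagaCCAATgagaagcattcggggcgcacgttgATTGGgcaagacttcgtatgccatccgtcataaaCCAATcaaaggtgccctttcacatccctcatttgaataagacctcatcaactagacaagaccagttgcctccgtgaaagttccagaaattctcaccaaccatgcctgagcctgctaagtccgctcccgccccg
H3c8 (chr13:23535168-23535467, + strand): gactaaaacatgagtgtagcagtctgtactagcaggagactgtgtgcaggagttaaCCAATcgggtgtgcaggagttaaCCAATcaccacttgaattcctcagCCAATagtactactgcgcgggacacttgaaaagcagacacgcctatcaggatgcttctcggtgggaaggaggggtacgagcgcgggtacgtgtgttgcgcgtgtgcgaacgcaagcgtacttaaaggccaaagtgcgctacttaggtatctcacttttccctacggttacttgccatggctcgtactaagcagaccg
H4c17 (chr13:21811496-21811795, + strand): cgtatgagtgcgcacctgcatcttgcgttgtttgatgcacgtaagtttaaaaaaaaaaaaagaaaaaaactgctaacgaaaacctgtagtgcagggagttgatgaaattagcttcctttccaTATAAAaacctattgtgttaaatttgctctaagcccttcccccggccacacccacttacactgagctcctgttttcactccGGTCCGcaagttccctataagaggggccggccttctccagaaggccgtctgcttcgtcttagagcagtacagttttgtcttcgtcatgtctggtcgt
H2bc23 (chr13:21810150-21810449, - strand): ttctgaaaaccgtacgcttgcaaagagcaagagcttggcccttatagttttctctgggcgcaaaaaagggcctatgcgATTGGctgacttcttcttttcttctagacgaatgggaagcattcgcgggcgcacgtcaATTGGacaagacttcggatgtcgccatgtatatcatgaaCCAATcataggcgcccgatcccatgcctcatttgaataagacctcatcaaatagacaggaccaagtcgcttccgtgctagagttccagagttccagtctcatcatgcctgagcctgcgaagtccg

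The table of promoters gave 63 windows for 62 of the 70 genes. All windows of H1, H2A, H2B and H3 held CCAAT, but only 3 of the 12 H4 windows did, against 37.4% of all 32851 promoter windows of the same length. The H4 motif was found in 11 of the 12 H4 windows and in 8.25% of all windows. The H1 box was found in 5 of the 6 H1 windows and in 7.18% of all. The H1f1 window printed above holds no H1 box, and those of H2bc7 and H2bc23 hold no octamer. The octamer was held by 7 of 18 H2A and 7 of 17 H2B windows, by no window of the other classes, and by 1.74% of all windows. Some H2A and H2B windows overlap on opposite strands, so a match can be counted in both classes. In 3 such overlapping pairs both windows held the octamer. The E2F-type site was found in 5 H2A and 4 H2B windows and in 0.323% of all. TATAAA was found in 35 of the 63 windows and in 13.6% of all. These matches describe the letters of the windows and were not measured as binding sites.

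A log2 level below is the log2 intensity of a probe minus the 75th percentile of its own array, and a difference is the PGC-1α mean minus the control mean on that scale, with its standard error (SE). Levels of one probe are not set against those of another, since probes bind unequally, except in the sums of marker genes at the end. To be tested, a probe needed a value on 2 or more arrays per group, and in 1 group or both a signal well above background on all 3 arrays. Of the 54 histone probes, 50 met this, and they represent 46 genes. In limma with adjustment over all 39295 probes tested, 44 of the 50 were higher on the PGC-1α arrays at an adjusted p of 0.05, none was lower (1 at an unadjusted p under 0.05) and 6 did not pass. Of all probes tested, 35.2% were called higher and 18.2% lower, and nothing is read from the contrast with these shares because the genes were chosen on this comparison. The difference was positive for 49 of the 50 probes, with a median of 0.85 or 1.80-fold. The median over all probes was 0.25 under this scaling, which leaves 0.60 for the histones relative to all probes. A call together with a difference of 1 or more was reached by 19 histone probes and by 8.07% of all probes.

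The PGC-1α arrays were dimmer, with 75th percentiles of 856 to 1268 in intensity units against 1617 to 1893 for the controls. After quantile normalization, which gives all arrays the same distribution, the median of all probes was 0.06. Under it 29 histone probes were called higher and none lower in limma (1 at an unadjusted p under 0.05), beside 21.6% and 19.7% of all probes, and the histone median relative to all probes was 0.57. A call with a difference of 1 or more was then reached by 12 histone probes and by 5.13% of all probes.

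**Figure D1:**
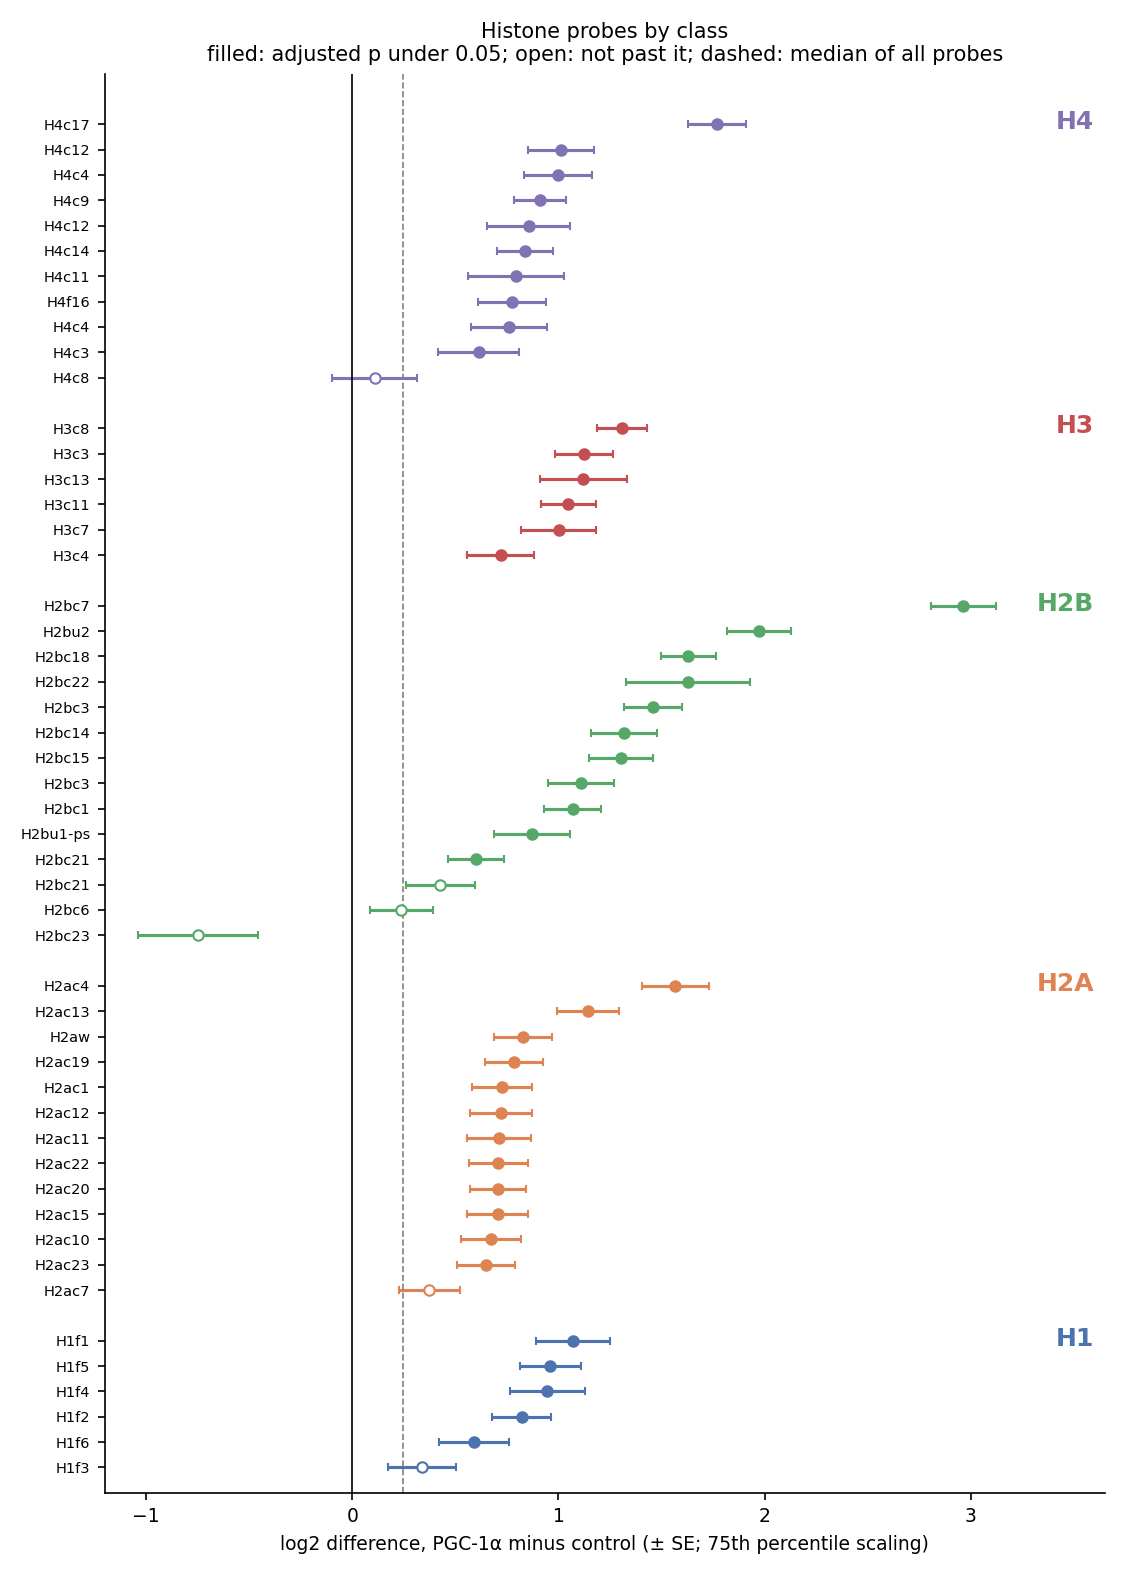
Log2 difference (PGC-1α minus control, 75th percentile scaling; horizontal axis) of each of the 50 tested histone probes with its SE, grouped by class; genes with 2 probes appear at both. Filled points passed an adjusted p of 0.05 in limma, open points did not, and the dashed line is the median of all probes, 0.25; the H2B class spans -0.75 to 2.96, while 9 of the 13 H2A probes lie between 0.65 and 0.78.

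On the arrays themselves, the 3 PGC-1α values lay above the 3 control values in 46 of the 50 probes and below them in 1, H2bc23, and they overlapped in H1f3, H2bc6 and H4c8. Over all 37314 tested probes with a value on every array, 41.4% had all PGC-1α values above and 22.2% had all below. The median difference was 1.21 for H2B, 1.08 for H3, 0.88 for H1, 0.84 for H4 and 0.71 for H2A. After quantile normalization the order changed, to 0.96 for H3, 0.72 for H2B, 0.71 for H1, 0.64 for H4 and 0.11 for H2A. No test was made of these class medians.

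**Figure D2:**
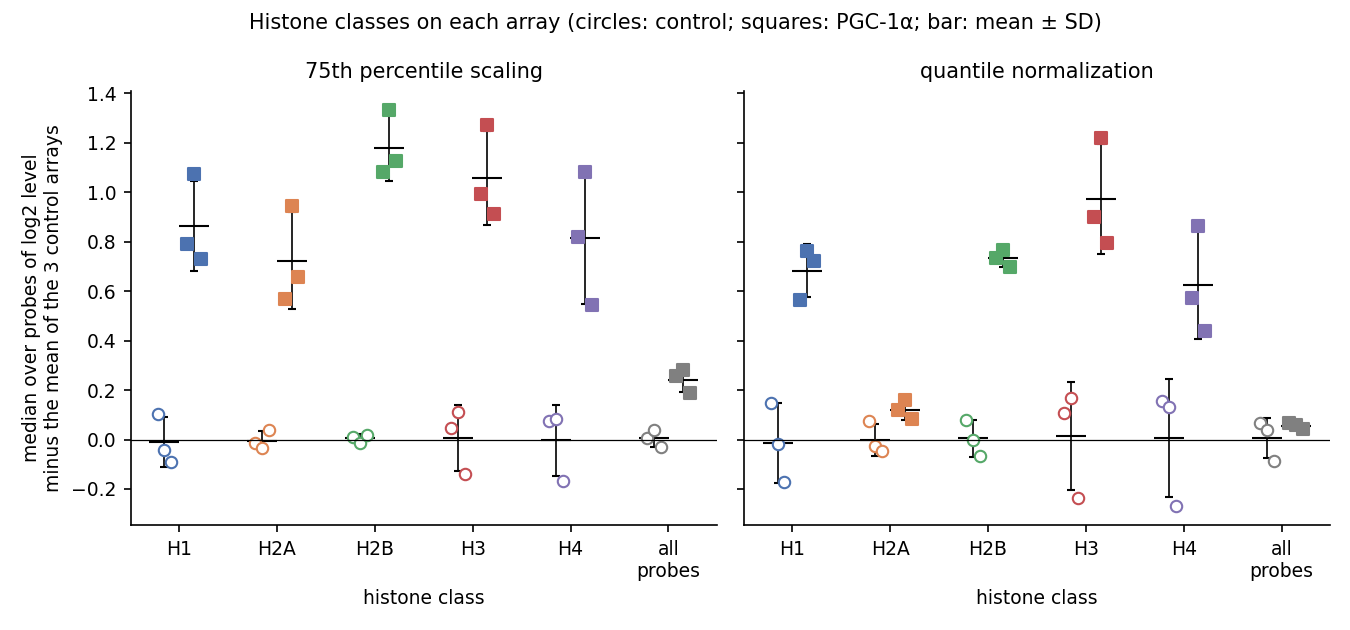
Median log2 level of each class on each array, relative to the mean of the 3 control arrays (vertical axis), under both scalings; circles are control arrays, squares PGC-1α arrays, and bars the mean ± SD of 3 arrays. The H2A medians of the PGC-1α arrays lie between 0.57 and 0.95 in the left panel and between 0.08 and 0.16 in the right, while those of H3 stay between 0.80 and 1.22 in the right panel.

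H2B, the partner of H2A in the dimers at the outer faces of the nucleosome, had the widest range. H2bc7 (older name Hist1h2bf, chromosome 13) had the largest difference of all histone genes. The control arrays gave log2 levels of -0.15, -0.24 and -0.21, and with PGC-1α it stood at 2.95, 2.87 and 2.49. The groups were more than 2 log2 units apart, with a difference of 2.96 (SE 0.16), which is 7.80-fold, and of 2.81 after quantile normalization. H2bu2 (Hist3h2ba), which lies outside the main cluster on chromosome 11, was at -2.43, -2.24 and -2.39 in controls and at -0.41, -0.14 and -0.60 with PGC-1α, a difference of 1.97 (SE 0.16). H2bc18, on chromosome 3, differed by 1.63 (SE 0.13).

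H2bc22 and H2bc23 both showed an uneven PGC-1α group. H2bc22 was at -3.99, -4.15 and -3.82 in controls and at -1.97, -3.11 and -1.99 with PGC-1α, so that replicate 2 lay over 1 unit below the other PGC-1α arrays (difference 1.63, SE 0.30). H2bc23 was at 0.52, 0.67 and 0.71 in controls and at 0.15, -0.85 and 0.35 with PGC-1α, with replicate 2 again the lowest. All 3 PGC-1α values of H2bc23 were below all controls, but the difference of -0.75 (SE 0.29) did not pass the threshold. Without PGC-1α replicate 2 it was -0.38, and it was called lower in 9 of the other settings tried. Over all tested histone probes, in contrast, replicate 2 had the highest median of the PGC-1α arrays relative to all probes. It was 0.78, against 0.55 for replicate 1 and 0.55 for replicate 3.

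H2bc6 showed no separation, at -1.15, -1.05 and -1.29 in controls and -0.91, -1.14 and -0.73 with PGC-1α (difference 0.24, SE 0.15). H2bc21 (Hist2h2be), whose transcripts are also found with a poly(A) tail, was read by 2 probes that differed by 0.43 (SE 0.17, past the threshold only in 4 other settings, the slide block among them) and 0.60 (SE 0.14, past it). The other gene of this class with 2 tested probes, H2bc3, gave 1.11 and 1.46. The remaining H2B probes, of H2bc1, H2bc14, H2bc15 and H2bu1-ps, were called higher by 0.87 to 1.32. H2bc1 is best known as a testis histone, and H2bu1-ps is annotated as a pseudogene.

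H2A carries the acidic patch to which many chromatin proteins bind, and most of its probes lay at the bright end of the intensity scale. H2ac4 (Hist1h2ab) was at -3.48, -3.66 and -3.68 in controls and at -2.09, -1.77 and -2.26 with PGC-1α, a difference of 1.57 (SE 0.16), and it was called higher under both scalings. H2ac13 differed by 1.14 (SE 0.15) under both scalings. At the other end H2ac7 was at -4.51, -4.42 and -4.54 in controls and at -3.93, -4.33 and -4.08 with PGC-1α, a difference of 0.37 (SE 0.15) that did not pass, although the groups did not overlap, and that passed in 4 other settings, such as normexp (0.47).

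The 9 bright H2A probes, with a mean log2 level of 4 or more, were those of H2ac1, H2ac10, H2ac11, H2ac12, H2ac15, H2ac19, H2ac20, H2ac22 and H2ac23. H2ac12, as an example, was at 4.98, 4.98 and 5.04 in controls and at 5.58, 5.97 and 5.61 with PGC-1α. All 9 were called higher, by 0.65 (H2ac23) to 0.78 (H2ac19). After quantile normalization the same 9 differed by 0.06 to 0.17 and none was called in limma (0 at an unadjusted p under 0.05). Many H2A genes encode nearly the same protein from nearly the same coding sequence. Probe sequences were not analysed here, so the 9 probes may read transcripts of one another's genes and are not 9 independent readings. The same limit holds for the other classes. Counts and medians over histone probes, by class or by chromosome, are therefore not taken over independent readings. A further probe just below this level, of H2aw (Hist3h2a), gave 0.83 and 0.34 in the same order of scalings.

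The brightness of these probes was set beside all probes of like level. Among the 1381 tested probes with a mean level of 4 or more the median difference was 0.61, and 89.4% were called higher. After quantile normalization their median was 0.02, and 0.362% were called higher. Of the 10 histone probes in that range, the 9 of H2A and 1 of H2bc3, all lay above the band's median under both scalings, with histone medians of 0.71 and 0.10. At levels from 2 to 4 the median of all 3621 probes was 0.40 and that of the 10 histone probes 0.87, and after quantile normalization 0.03 and 0.53. From 0 to 2 the medians were 0.11 over 6831 probes and 0.91 over 12 histone probes. From -2 to 0 they were -0.01 over 8222 probes and 1.00 over 11 histone probes. At the dim end the median of all probes was higher again, 0.24 over 8937 probes from -4 to -2 and 0.40 over 10303 probes below -4. In those bands 4 of 5 and 1 of 2 histone probes lay above the band's median. Of the 6 bands, that of the brightest probes, where most H2A probes lie, had the largest median, and its part in the H2A values was not tested further.

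**Figure D3:**
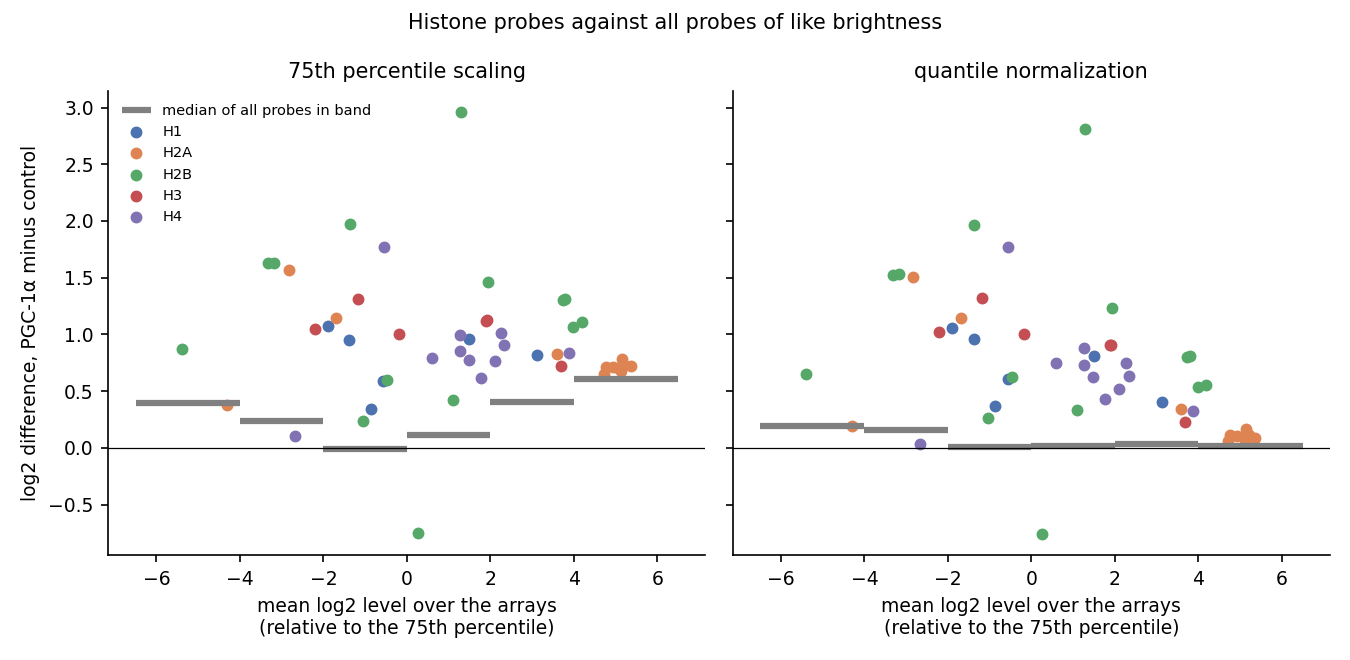
Mean log2 level over the 6 arrays (horizontal axis, relative to the 75th percentile) and log2 difference (vertical axis) of the 50 tested histone probes, coloured by class, under both scalings; grey bars are medians of all tested probes in bands of level. At levels of 4 or more the grey bar stands at 0.61 on the left and 0.02 on the right, and the H2A points move with it, while the points at levels from -2 to 0 have a median of 1.00 in both panels.

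H3, which carries the lysines that most histone marks are named for, was called higher in all 6 probes tested. H3c8 (Hist1h3g) was the tightest of them, at -1.81, -1.77 and -1.90 in controls and at -0.54, -0.53 and -0.48 with PGC-1α, a difference of 1.31 (SE 0.12) and 1.32 after quantile normalization. H3c3 differed by 1.12 (SE 0.14), H3c13 on chromosome 3 by 1.12 (SE 0.21), H3c11 by 1.05 and H3c7 by 1.00 (SE 0.18). H3c4 was at 3.40, 3.45 and 3.15 in controls and at 3.99, 4.29 and 3.88 with PGC-1α. Its difference of 0.72 (SE 0.16) was the smallest of the class and was 0.23 after quantile normalization, where it no longer passed.

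H4, the most conserved of the histones and the partner of H3, was called higher in 10 of 11 probes. H4c17 (Hist1h4m) stood apart, at -1.36, -1.47 and -1.48 in controls and at 0.36, 0.49 and 0.15 with PGC-1α, a difference of 1.77 (SE 0.14) under both scalings. The next largest, H4c12, differed by 1.01 (SE 0.16) at one probe and by 0.85 (SE 0.20) at the other, and H4c4 by 1.00 and 0.76 at its 2 probes. The single gene on chromosome 6, H4f16 (Hist4h4), differed by 0.78 (SE 0.17). H4c3 was among the smallest, at 1.51, 1.71 and 1.17 in controls and at 2.16, 2.28 and 1.79 with PGC-1α (difference 0.61, SE 0.20), and did not pass after quantile normalization. H4c8 showed no separation, at -3.04, -2.33 and -2.79 against -2.78, -2.41 and -2.65 (difference 0.11, SE 0.20), and its sign turned in 3 of the settings tried.

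H1 is the linker histone, and its main somatic genes lie in the chromosome 13 cluster. H1f1 (Hist1h1a) was at -2.54, -2.54 and -2.23 in controls and at -1.66, -1.14 and -1.29 with PGC-1α, a difference of 1.07 (SE 0.18). H1f5 (Hist1h1b) was at 1.16, 0.96 and 0.92 and at 1.82, 2.15 and 1.95, a difference of 0.96 (SE 0.15), and H1f4 differed by 0.95 (SE 0.18). In these genes the groups did not overlap. H1f2 differed by 0.82 (SE 0.15) and by 0.41 after quantile normalization, without a call there. H1f6, known from the testis, differed by 0.59 (SE 0.17). H1f3 was at -0.84, -1.05 and -1.21 in controls and at -0.63, -0.54 and -0.92 with PGC-1α, so the groups overlapped, and its difference of 0.34 (SE 0.16) did not pass. It passed with the slide as a block (adjusted p = 0.047 from limma), with normexp (0.40) and with array weights (0.39).

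The 4 probes left out of the test were those of H2ac21, H2af-ps2, H3c1 and H2bc4. Those of H2ac21 and H2af-ps2, the latter annotated as a pseudogene, were not well above background on any array. The H3c1 probe was well above background on no control array and on 2 PGC-1α arrays. It was at -7.65, -9.18 and -8.18 in controls and at -5.85, -5.97 and -6.39 with PGC-1α. No fold is given, since PGC-1α replicate 3 lay below the lowest signal well above background on its array (-6.04). H2bc4 lost 3 of its 6 array values to the scanner's outlier marks, which left 2.81 and 3.35 on control replicates 2 and 3 and 3.84 on PGC-1α replicate 3. By chromosome, the median difference was 0.91 over the 39 tested probes of chromosome 13, 0.78 over 7 of chromosome 3 and 0.87 over 3 of chromosome 11.

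Many H2A and H2B genes stand head to head, so that a single stretch of DNA serves both. In 10 such couples the promoter windows overlapped on opposite strands, by 220 to 279 bases, and in 5 of them both genes were tested. The window printed above for H2bc7 overlaps that of H2ac7 by 273 bases. H2bc7 had the largest difference of its class, 2.96, and H2ac7 the smallest of its own, 0.37. In the couple H2ac22 and H2bc22 the differences were 0.71 and 1.63, in H2ac15 and H2bc15 0.71 and 1.30, and in H2ac1 and H2bc1 0.73 and 1.07. In H2ac23 and H2bc23 they were 0.65 and -0.75. The H2B gene thus had the larger difference in 4 of the 5 couples under either scaling. In 4 of the 5 the H2A probe was among the bright probes whose difference depends on the scaling, and probes of near-identical H2A genes may share signal, so the couples are described without a test.

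**Figure D4:**
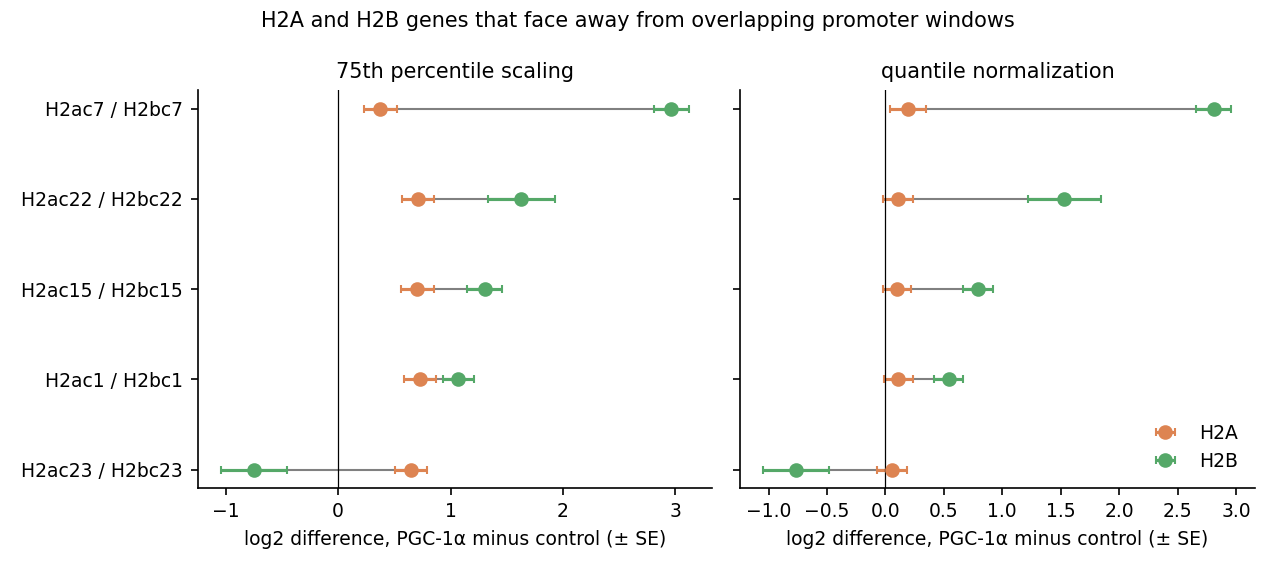
Log2 difference (horizontal axis, PGC-1α minus control, with SE) of the 5 H2A and H2B couples with overlapping promoter windows on opposite strands and both genes tested, under both scalings. In H2ac7 and H2bc7 the points lie 2.59 apart on the left and 2.62 on the right, and in H2ac23 and H2bc23 the H2B gene is the lower.

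Differences were also read by promoter motif, over the 42 tested genes with a window, each gene at the mean of its probes. The 10 genes with an octamer had a median difference of 0.95 and the 32 without it 0.85, and after quantile normalization 0.44 and 0.67. The 24 genes with TATAAA had a median of 0.94 and the 18 without it 0.78, and after quantile normalization 0.74 and 0.42. The 7 genes with the E2F-type site, H2bc7 among them, had a median of 0.71 and the 35 others 0.91. After quantile normalization these were 0.11 and 0.70. For the CCAAT box the medians with and without it were 0.85 and 0.85, and after quantile normalization 0.58 and 0.69. For the H1 box they were 0.95 and 0.83, then 0.61 and 0.64. For the H4 element they were 0.88 and 0.83, then 0.70 and 0.54. The ranges of all these groups overlapped widely, and the octamer and E2F groups hold H2A and H2B genes only. Windows of a head-to-head couple overlap, so a match can be counted for both of its genes.

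The rest of the histone supply chain was read with lists of genes that were, like the histones, chosen with earlier results of these arrays known, and each gene stands with its brightest tested probe. As a reference for these lists, 35.2% of all probes were called higher and 18.2% lower, and 21.6% and 19.7% after quantile normalization. Variant histones, which are made outside S phase as well and mostly from polyadenylated transcripts, had 14 tested genes, 8 called higher and 1 lower, with a median of 0.31 relative to all probes. After quantile normalization 2 were higher, 1 was lower and the median was -0.01. H1f10 rose by 0.85 (SE 0.18, adjusted p = 0.0065 from limma), H2aj by 0.71 (only before quantile normalization) and H1f7, a testis linker histone, by 0.61. Macroh2a2, a variant with a large additional domain, fell by 0.73 (adjusted p = 0.020 from limma), but with normexp background correction the difference was -0.40 and did not pass (adjusted p = 0.068 from limma).

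Of 34 tested genes of histone mRNA processing, 7 were higher, 6 lower and 21 did not pass, with a median of -0.05 relative to all probes. Of all probes, 35.2% were called higher and 18.2% lower. After quantile normalization 2 genes of the list were higher and 9 lower, beside 21.6% and 19.7% of all probes. The list median relative to all probes was then -0.08. Zfp473 encodes a zinc finger protein of the U7 snRNP, the particle that cuts the 3′ end of histone transcripts. It was at -3.36, -3.33 and -3.39 in controls and at -5.73, -6.11 and -5.73 with PGC-1α, without overlap (difference -2.50, SE 0.15, adjusted p = 5.0e-05 from limma). Its PGC-1α values stood close to the lowest signals well above background (-6.71, -6.15 and -6.04), and with normexp background correction the difference was -0.85. Lsm10, a subunit of the U7 ring, fell by 1.03 (SE 0.14, adjusted p = 0.0011 from limma), and Coil, the scaffold of Cajal bodies, fell by 1.00 (SE 0.13). Snrpg and Snrpe, Sm proteins of that ring and of the spliceosomal particles, rose by 0.77 and 0.72, and neither was called after quantile normalization. Wdr33, a subunit of the polyadenylation machinery, rose by 0.94 (SE 0.17, adjusted p = 0.0036 from limma).

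Slbp, which encodes the stem-loop binding protein, was at 2.51, 2.60 and 2.58 in controls and at 2.48, 2.41 and 2.51 with PGC-1α. Its difference of -0.10 (SE 0.12) did not pass (adjusted p = 0.53 from limma), while after quantile normalization it was -0.40 and was called lower (adjusted p = 0.039 from limma). Npat was at -1.32, -0.86 and -0.85 in controls and at -1.06, -2.48 and -0.72 with PGC-1α. Npat and Slbp each stand in 2 of the lists. So does E2f1, which was called lower and counts both among the S phase genes and in histone transcription and chaperones. The low value of Npat is again that of PGC-1α replicate 2, and the difference of -0.41 (SE 0.42) did not pass.

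Among 35 tested genes of histone transcription and histone chaperones, 4 were higher, 10 lower and 21 did not pass, beside 35.2% higher and 18.2% lower among all probes. The list median was -0.32 relative to all probes and -0.29 after quantile normalization. There 1 gene was higher and 11 were lower, beside 21.6% and 19.7% of all probes. Pou2f2, the lymphoid factor that binds the octamer, fell by 1.73 (SE 0.13, adjusted p = 1.3e-04 from limma), Asf1a, which hands H3 and H4 to the assembly factors, by 1.52 (SE 0.29) and Chaf1b, a subunit of the assembly factor CAF-1, by 0.92 (SE 0.13). Those 3 were called lower under both scalings, but with normexp background correction Asf1a differed by only -0.43 (adjusted p = 0.032 from limma). Ssrp1, a subunit of FACT, rose by 0.57, Nap1l1, a chaperone of H2A and H2B, by 0.52 and Mms22l by 0.50, and these rises were not called after quantile normalization.

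S phase genes were not higher as a group. Of 41 tested, 1 was higher, 8 were lower and 32 did not pass, beside 35.2% higher and 18.2% lower among all probes, with a median of -0.31 relative to all probes, and after quantile normalization 17 were lower and none was higher in limma (0 at an unadjusted p under 0.05), beside 19.7% and 21.6% of all probes. Mcm10, which acts when replication forks start, was at 1.23, 1.05 and 1.02 in controls and at -0.42, -0.54 and -0.18 with PGC-1α (difference -1.48, SE 0.15, adjusted p = 3.6e-04 from limma). Fen1, the flap endonuclease of the lagging strand, fell by 1.35 (SE 0.15) and Pola2, a subunit of the polymerase that lays down primers, by 1.31 (SE 0.16). Gins3, of the replicative helicase, was the single gene called higher, by 0.65, and was at 0.05 after quantile normalization.

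RNAs that, like the histone mRNAs, end without a poly(A) tail were read in 27 genes of small nucleolar, small nuclear and other small RNAs. Of these genes, 25 were higher, 1 was lower and 1 did not pass, beside 35.2% higher and 18.2% lower among all probes. Their median relative to all probes was 0.77, and 0.82 after quantile normalization, where 22 were higher and 1 lower, beside 0.60 and 0.57 for the histones. Snora34 rose by 2.16 (SE 0.18, adjusted p = 1.5e-04 from limma), Snord33 by 2.11 (SE 0.14) and Rn7sk, the RNA that holds P-TEFb inactive, by 1.86 (SE 0.14). Rn7sk was at 1.08, 1.30 and 1.09 in controls and at 2.96, 3.18 and 2.92 with PGC-1α, without overlap. The exception was Scarna13, which fell by 0.80 (SE 0.13, adjusted p = 0.0029 from limma). The protocols name a linear RNA amplification but not its primer, and the part of RNAs without a tail in the histone result was not tested.

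**Figure D5:**
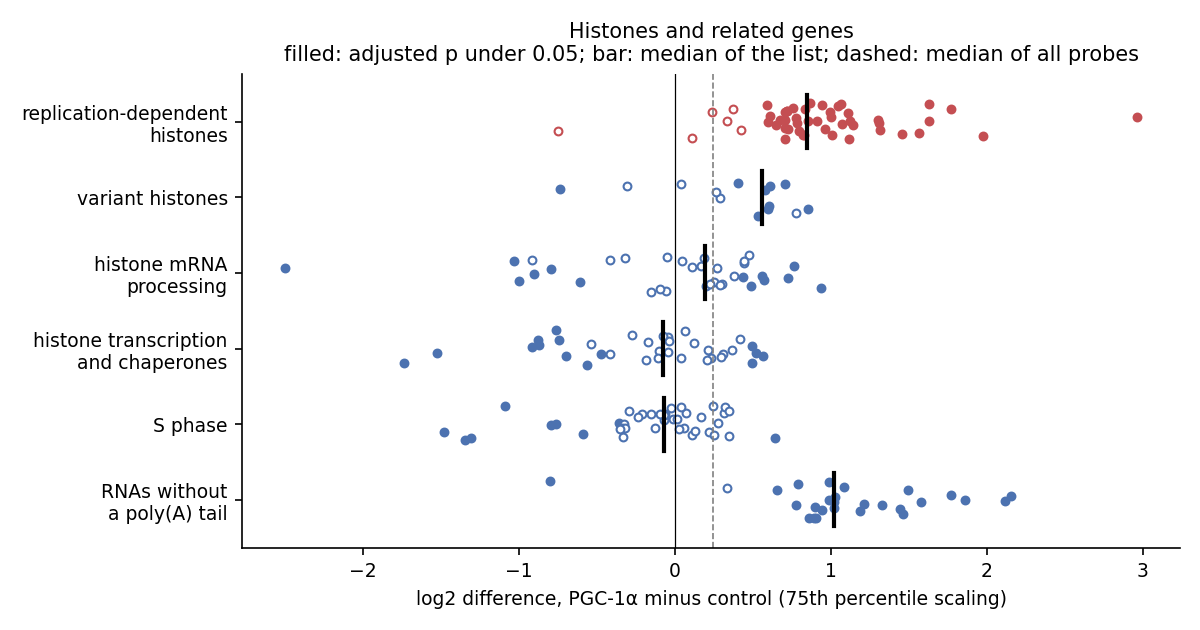
Log2 difference (horizontal axis, 75th percentile scaling) of the histone probes and of the tested genes of 5 related lists, one point for each probe or gene; filled points passed an adjusted p of 0.05 in limma, black bars are list medians and the dashed line is the median of all probes, 0.25. The medians of the histones, the variant histones and the RNAs without a poly(A) tail stand to the right of that line. Those of histone mRNA processing, of histone transcription and chaperones and of the S phase genes stand to its left.

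The identity of the samples was read from the same arrays. Of 9 microglial marker genes, 8 were well above background on all 6 arrays, and Cx3cr1 was on none. Summed over the probes of a list, only as a check of the label, on the linear scale relative to the 75th percentile, the microglial list was at 84.7 to 88.7 on control and at 122 to 144 on PGC-1α arrays. The neuronal list was at 24.2 to 29.7 and 36.5 to 49.8, the astrocyte list at 0.241 to 0.278 and 0.408 to 0.520, the oligodendrocyte list at 1.46 to 1.65 and 1.52 to 1.72, and the endothelial list at 0.0529 to 0.0691 and 0.0710 to 0.0932. Of the 3 tested neuronal markers, Snap25 was higher by 0.71, and by 0.11 without a call after quantile normalization. Rbfox3, close to background, was called higher under both scalings, by 1.14 and 0.84, while Tubb3 was lower by 0.63. Snap25 made up most of the neuronal sum. Its control mean log2 level was 4.65, against 1.04 for Tubb3 and -6.75 for Rbfox3. The median of the microglial list relative to all probes was 0.24, and 0.018 after quantile normalization. The number of these non-microglial markers well above background on all 6 arrays was 2 of 4 for neurons, 3 of 4 for astrocytes, 4 of 4 for oligodendrocytes and 2 of 3 for endothelium, and their part in the histone values was not tested. Ppargc1a itself was read by 2 probes close to background that did not meet the filter. One was at -6.21, -6.37 and -7.71 in controls and at -5.70, -5.28 and -5.90 with PGC-1α (difference 1.14, SE 0.41, adjusted p = 0.069 from limma without the filter), and the other differed by 0.26 (SE 0.29), so the arrays give no firm check of the overexpression and every direction refers to the labels.

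Within slide 1, with 2 arrays against 2, the histone median relative to all probes was 0.64, and 49 of the 50 probes were positive, as were 62.4% of all probes. On slide 2, with 1 array against 1, it was 0.54, again with 49 of 50 positive beside 63.0% of all. The class order within slide 1 was 0.99 for H2B, 0.84 for H3, 0.63 for H1, 0.63 for H4 and 0.51 for H2A, relative to all probes, and on slide 2 it was 0.88 for H2B, 0.80 for H3, 0.64 for H4, 0.53 for H1 and 0.41 for H2A. H2B was the highest class and H2A the lowest on either slide under this scaling.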

How the data were processed

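Total RNA of 6 BV2 cell samples was amplified, labelled and hybridized to 1-colour Agilent arrays, and the labels gave groups, replicate numbers and slides. The authors deposited the intensity of each spot in the green channel, already corrected for background by Agilent Feature Extraction 11.5.1.1, and a table of log2 values that the authors normalized in GeneSpring 13 by a procedure not given in the sources used here. The labels name the dye Cy3 and the protocol Cy5. The members, lists and motifs were chosen with earlier results of these data known.

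Log2 intensities of 59305 spots per array were set relative to the 75th percentile of the array, outlier spots as marked by the scanner software (149 to 1590 on an array) were dropped, and repeated spots averaged. No spot was saturated, and 41122 to 45165 spots per array were well above background. Of 56605 probes, 33767 matched RefSeq genes by accession. Groups were compared in limma 3.58.1 (R 4.3.3; lmFit and eBayes, two-sided, Benjamini-Hochberg over 39295 probes, threshold 0.05) on all 6 arrays without covariates, after a test on simulated data. With 3 arrays against 3 the smallest exact permutation p is 0.1, and the number of arrays limits the precision. Array correlations across probes were 0.983 to 0.994 within groups and 0.939 to 0.965 between them.

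Probes named are the 2 largest and 2 smallest differences of each class, every probe lower or not past the threshold, and, from the lists, the 3 largest rises and falls past the threshold with Slbp, Npat and Ppargc1a. Other histone probes were named for completeness after their values were seen. Alternatives were quantile normalization, normexp (offset 50) with either scaling, the array median, other filters and outlier handling, matched probes, other summaries of a gene, slide or replicate blocks, a variance trend, array weights, the authors' values and each array left out. Python 3.11.15, numpy 2.4.6, pandas 2.3.3 and matplotlib 3.10.9 were used.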

Additional observations from a re-analysis of the deposited data

How the results depend on the processing

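The number of histone probes called higher, 44 of 50, was 29 after quantile normalization and 30 to 47 in the other settings, the authors' log2 values (33) among them, and 42 to 43 with each array left out. The number called lower, 0, was 1 with the array median, normexp and the 75th percentile, normexp and quantile normalization, the slide block, the variance trend, array weights and within slide 1, and 0 to 1 with each array left out. That probe was H2bc23 each time. The histone median relative to all probes, 0.60, was 0.49 with normexp and the 75th percentile, 0.48 without a filter on dim probes, 0.70 over matched probes, and 0.51 to 0.68 with each array left out.

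The H2A median relative to all probes, 0.46, was 0.051 after quantile normalization, 0.069 with normexp and quantile normalization, 0.057 with the authors' values, and 0.37 to 0.55 with each array left out. The H2B median, 0.96, was 0.66, 0.62 and 0.62 in those settings, 0.82 with normexp and the 75th percentile, 0.85 without a filter, 0.86 with outlier spots kept, 1.06 over matched probes, 1.11 with the probes of each gene averaged, and 0.84 to 1.07 with each array left out, lowest without PGC-1α replicate 2. The H3 median, 0.84, was 0.66 with normexp and the 75th percentile and 0.71 to 0.89 with each array left out, and those of H1 (0.52 to 0.70) and H4 (0.46 to 0.66) moved by less than the spread between arrays in all settings. H4c8 turned from 0.11 to -0.0023 with the array median, to -0.19 with array weights and to -0.052 without control replicate 1 (-0.052 to 0.30 with each array left out). The cause was not tested beyond what each setting changes by construction.

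The deviations of same-numbered arrays from their group means correlated across probes with r of -0.21, 0.0031 and 0.59 for numbers 1, 2 and 3. Of the same-numbered arrays, only the number 3 arrays, which are also the arrays of slide 2, deviated together. Control replicate 1 and PGC-1α replicate 2, both on slide 1, also deviated together, with r of 0.53. The numbers were not taken to pair the arrays. With the replicate block 45 probes were called higher and 1, H2bc23, lower.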
